A study of Mus musculus with 24 samples.

Results

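Mbl2 encodes mannose-binding lectin C, a secreted pattern recognition protein, and its transcript was followed in small intestinal organoids after gamma irradiation. All probes that carry the symbol Mbl2 in the deposited array table were taken, which gave 1 probe (ILMN_1258500) of 25697. It is 1 of 18138 symbols in the table. The gene was chosen by its log2 difference at 24 h, the largest rise of a named gene at that time, so its values at 24 h are given as a description without a test. The differences at 48 and 96 h played no part in that choice, but all 24 arrays were normalized and fitted together. With the 24 h arrays alone the 24 h difference of Mbl2 was 2.90 and ranked 2 among all genes.

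The organoids were grown from the small intestine of C57BL/6 mice, as cultures of epithelium without the tissue around it, in medium that contained Noggin, R-spondin and 50 ng/ml EGF. Organoids reseeded 3 days earlier were given 6 Gy of gamma rays in the irradiated groups and were sampled 24, 48 or 96 h later. The 3 control groups were unexposed and were sampled at the same times, which makes 6 groups with 4 samples in each. Nothing in the labels states that the 4 samples of a group are separate cultures or mice, so the p-values here measure a spread that may be technical only. All arrays of 1 time lay on 1 chip, irradiated samples in positions 5 to 8 and controls in positions 1 to 4. Irradiation and position, and likewise time and chip, cannot be told apart.

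Mannose-binding lectins have a collagen-like stem and a cluster of carbohydrate-binding heads that attach to mannose and fucose on microbial surfaces. Bound to a surface, they switch on serine proteases, the MASPs, which cleave C4 and C2 and start the lectin pathway of complement. Mice have a pair of such genes, Mbl1 (MBL-A) and Mbl2 (MBL-C). The liver is the main source of both proteins, and Mbl2 transcripts are also known from the mouse small intestine.

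In RefSeq's annotation of build GRCm38.p6, the Mbl2 gene record covers chr19:30232906-30239687 on the forward strand (6782 bases), and the array table also places the gene on chromosome 19. The 250 bases before the start site listed at position 30232928 (chr19:30232678-30232927, forward strand, RefSeq) are shown because the level of this transcript is what follows. The last 22 of these bases lie inside the gene record, which begins before that start site. Capitals mark the matches found among 5 motifs.
Mbl2 promoter window: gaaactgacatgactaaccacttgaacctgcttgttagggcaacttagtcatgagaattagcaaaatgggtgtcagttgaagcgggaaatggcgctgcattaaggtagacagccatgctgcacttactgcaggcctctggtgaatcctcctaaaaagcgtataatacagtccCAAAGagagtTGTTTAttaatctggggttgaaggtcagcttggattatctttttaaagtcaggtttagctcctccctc
The forkhead core TGTTTA lies 68 to 63 bases before the start site, and 12% of 32851 listed promoter windows of the same length hold it on either strand. The short element CAAAG, part of the HNF4 site, lies 78 to 74 bases before the start site, and 48.6% of windows hold it. Neither strand of the window holds GTTAAT, one side of the HNF1 site (6.43% of windows do), the AP-1 site TGANTCA (6.75%) or the TATA box TATAAA (12.4%). These matches describe letters and do not show that a factor binds there.

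Mbl2 was at or near background in organoids that were not irradiated and well above it on each of the 8 arrays of irradiated organoids at 24 and 48 h. At 96 h it was near background in both groups. The deposited detection p-value is the share of negative control beads at least as bright as the probe, and a probe was counted as detected at a p under 0.05. By that measure Mbl2 was detected on all 4 irradiated arrays at 24 h and on none of the 4 controls. At 48 h it was detected on all 4 irradiated arrays and 1 control, and at 96 h on 2 irradiated arrays and no control.

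At 24 h the bead signals as deposited, before any normalization, were 281, 190, 205 and 175 in irradiated replicates 1 to 4, against 77.3, 78.8, 85.2 and 82.6 in controls. Each irradiated detection p was 0.00125, the smallest step above 0, and control values were 0.486 to 0.663. The groups did not overlap, as was true with irradiated above control for 12.7% of all 10798 genes tested, and the controls sat inside the range of the negative control beads. In irradiated samples 74.9% to 78.8% of all probes of the same array were dimmer than Mbl2, against 13.8% to 21.8% in controls, a rank that no scaling of whole arrays can alter.

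After background correction and quantile normalization, the 24 h level was 7.77, 7.90, 7.50 and 7.55 log2 units in the irradiated samples and 4.57, 4.60, 4.64 and 4.61 in the controls. The means were 7.68 ± 0.19 and 4.60 ± 0.03 (SD, n = 4 each), and the controls lay below the lowest detected probe of their own arrays, at 5.15 to 5.37. Only a bound on the fold is therefore given. Set against that floor, Mbl2 was at least 5.33-fold higher in irradiated organoids on this normalized scale. That bound holds for this background correction only. The fitted difference of 3.07 log2 units (SE 0.18) also depends on the background correction. It was 2.04 with an offset of 50 and 1.71 without background correction. The next named genes in the order of fitted rises at 24 h were Cacna1f (2.95), V1rh21 (2.93) and Cxcr5 (2.89), just below Mbl2. Its first place at 24 h depends on the processing. Mbl2 ranked 22 without background correction, 22 in the authors' processed values, 20 with an offset of 50 and 6 with cyclic loess.

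**Figure D1:**
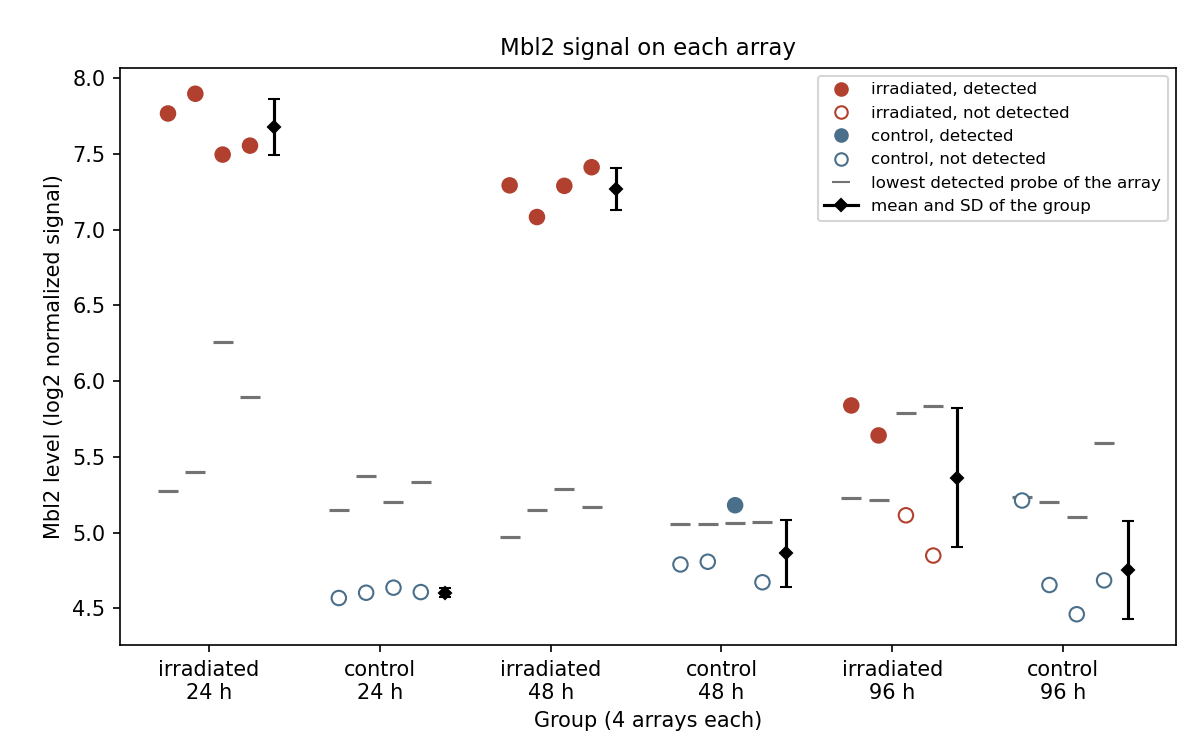
Mbl2 level on each of the 24 arrays, in log2 normalized signal, with irradiated samples left of the controls of the same time. Filled circles are arrays on which the probe was detected, open circles arrays on which it was not, grey dashes the lowest detected probe of the same array, and diamonds the group mean with SD (n = 4); irradiated samples at 24 and 48 h lie at 7.08 to 7.90, above every other array.

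The difference at 48 h, which the choice of the gene did not use, had the same direction. Bead signals were 223, 271, 214 and 197 in irradiated samples, against 81.7, 74.9, 80.4 and 77.4 in controls. On the normalized scale these were 7.29, 7.08, 7.29 and 7.41 log2 units in irradiated samples, against 4.79, 4.81, 5.18 and 4.67 in controls. The groups did not overlap, and no irradiated sample came within 1 log2 unit of a control. Over all genes tested, 9.44% had every irradiated sample above every control at 48 h.

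Mbl2 averaged 7.27 ± 0.14 log2 units in irradiated organoids and 4.86 ± 0.22 in controls at 48 h (SD, n = 4 each). The fitted difference was 2.41 (SE 0.18, 95% interval 2.03 to 2.78), with a limma adjusted p of 5.38e-09 over all genes tested. The spread behind that p is pooled over all 6 groups, including the 24 h arrays that chose the gene. With the 48 h arrays alone the difference was 2.65 (limma adjusted p = 5.42e-06). At 48 h, 7.27% of genes were called higher. Only 1 of the 4 controls measured the gene above background, so the fold is better read as a bound. On this normalized scale it was at least 4.52-fold against the lowest detected signal of the control arrays. That bound, too, holds for this background correction only. An exact two-sided permutation test of the level alone gave p = 0.0286, the smallest that 70 splits allow.

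Mbl2 had the largest fitted difference of all genes tested at 48 h, ahead of the adhesion molecule gene Mcam (2.40). That first place rests on the background correction and on single arrays. Mbl2 ranked 24th without background correction and 23rd in the authors' processed values, with differences of 1.24 and 1.25. With an offset of 50 it ranked 13th. Leaving out single arrays moved it to place 2 or 3 in 5 of 24 fits. The difference itself passed under every setting fitted and without each array. Apart from the authors' values and the fit without background correction it lay between 1.57 and 2.65.

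**Figure D2:**
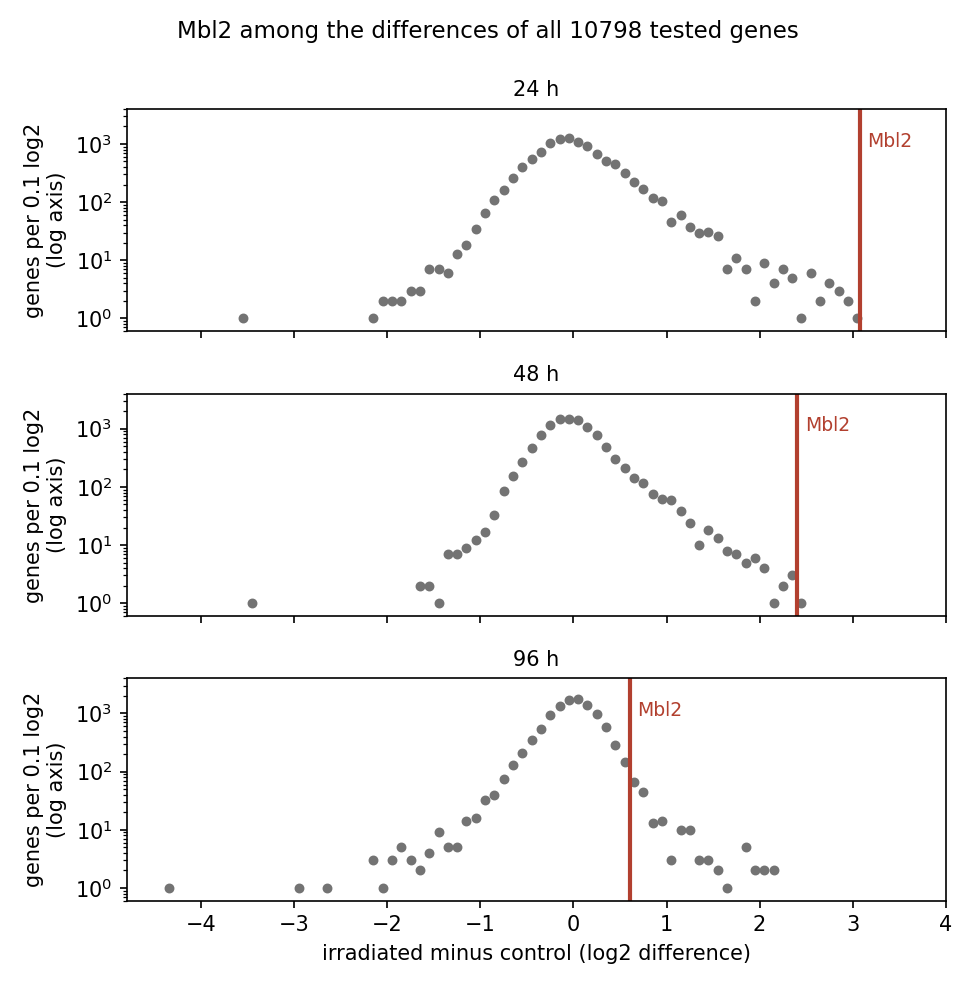
Number of genes (log axis) in bins of 0.1 log2 units of the irradiated minus control difference, over 10798 genes at 24, 48 and 96 h, with points at bin centres and Mbl2 as a vertical line. Mbl2 lies at the right end at 24 h (3.07) and 48 h (2.41) and inside the right flank at 96 h (0.61).

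By 96 h most of the difference was gone. Irradiated samples had 5.84, 5.64, 5.11 and 4.85 log2 units, against 5.21, 4.65, 4.46 and 4.69 in controls, and the ranges overlapped. Mbl2 was detected in irradiated replicates 1 and 2, whose detection values were 0.00752 and 0.01, and not in replicates 3 and 4, whose detection values were 0.155 and 0.266.

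The 96 h means were 5.36 ± 0.46 in irradiated organoids and 4.75 ± 0.32 in controls (SD, n = 4 each). The difference of 0.61 (SE 0.18, 95% interval 0.23 to 0.98) did not pass, with a limma adjusted p of 0.0519, and 1.71% of all genes were called higher at this time. The bound against the floor was 1.06-fold on the same normalized scale. The exact permutation p of the level alone was 0.0857.

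Irradiated replicates 3 and 4 of 96 h were also the arrays of that group with the fewest detected probes, 11100 and 10971, against 13168 and 13231 in replicates 1 and 2. The lowest detected probe lay at 5.79 and 5.83 log2 units on these arrays, against 5.23 and 5.21 on the other two. With a covariate for detected probes the 96 h difference was 0.73 and passed (adjusted p = 0.0111). Without the 5 arrays of the series with the fewest detected probes, which include both replicates, it was 1.02 and passed (0.00486). It also passed without irradiated 96 h replicate 4 (0.78, adjusted p = 0.00958), without control 96 h replicate 1 (0.77, 0.0126) and without control 48 h replicate 3 (0.61, 0.0476). The call at 96 h thus depends on single arrays, while the direction was the same in every fit run.

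The decline between 48 and 96 h was itself tested. The irradiation effect was smaller at 96 h than at 48 h (difference of effects -1.80, SE 0.25, limma adjusted p = 0.000178), and 3.49% of all genes passed this test in either direction. In irradiated organoids the level was lower at 96 h than at 48 h (difference -1.91, SE 0.18, adjusted p = 2.31e-07), where 11.6% of genes passed. In controls the difference between 96 and 48 h was -0.11 (95% interval -0.48 to 0.26, adjusted p = 0.759) while 5.2% of genes passed. Both control groups were near background, so no fold is given, and the size of the difference of effects depends on the background correction (-2.03 to -0.90 over the settings fitted). From 24 to 48 h the effect was smaller by 0.67 on the log2 scale (difference -0.67), which is not tested because the 24 h arrays chose the gene (0.991% of all genes passed in this contrast).

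Ordered by mean level, Mbl2 stood at 7.68 in irradiated 24 h samples, 7.27 in irradiated 48 h samples and 5.36 in irradiated 96 h samples. The control means followed at 4.86 for 48 h, 4.75 for 96 h and 4.60 for 24 h. The first 3 groups did not overlap with one another. Irradiated 96 h samples overlapped with the 48 h controls, and the 3 control groups overlapped from one neighbour to the next.

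The number of probes detected per array was lower on average in irradiated samples, at 11469 ± 1475 against 13012 ± 485 in controls at 24 h. It was 13660 ± 783 against 14071 ± 49.3 at 48 h and 12118 ± 1251 against 12992 ± 895 at 96 h (SD, n = 4 each). By exact permutation, two-sided, none of the 3 differences passed (p = 0.114, 0.457 and 0.229; adjusted over the times 0.343, 0.457 and 0.343). The smallest p that 70 splits allow is 0.0286. After adjustment over 3 times this test could therefore not call a difference at 1 time alone, and it does not show that the numbers of detected probes were equal. At 24 h the irradiated arrays with the fewest probes, replicates 3 (9738) and 4 (10783), had the lower Mbl2 levels of their group. Without the 5 arrays with the fewest probes the 24 h difference was 3.36 and the 48 h difference 2.53. Correlations between arrays of 1 group were 0.954 to 0.994.

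The organoids expressed the epithelial markers that were measured, and several markers of other tissues were below detection while others were present. All 7 epithelial markers on the array (among them Cdh1, Vil1 and Cdx2) were detected on every array. The hepatocyte markers Alb, Ahsg, Fga, Tat and Tdo2 were detected on 0 of 24 arrays, as were Ptprc, Cd68, Csf1r, Itgam, Emr1, Cd3e and Cd74 of blood cells and Col1a1, Col1a2, Col3a1, Pdgfra and Dcn of mesenchyme. Of 12 hepatocyte markers 4 passed the filter, and at 24 h Afp and Cyp2e1 rose (0.69 and 1.05, adjusted p = 0.00152 and 0.000482). Cyp2e1 averaged 5.43 log2 units, near background, so the size of its rise is limited by the background estimate. Cps1, an enzyme of the urea cycle that enterocytes also make, fell by 0.91 on the log2 scale and was the brightest of the 12 (10.42 log2 units on average), so it weighs most in their sum. The summed signal of the 12 was lower in irradiated samples at 24 h, at 1431 to 1737 against 2063 to 2386 in controls, at 1938 to 2105 against 2159 to 2431 at 48 h, and overlapped at 96 h (1870 to 1965 against 1878 to 2395). Of 7 mesenchymal markers 2 passed the filter, and Vim rose at 24 h and 48 h (0.71 and 0.89, limma adjusted p = 0.0118 and 0.00345) and Acta2 at 48 h (0.87, adjusted p = 0.0259). Acta2 did not pass at 24 or 96 h (0.48 and 0.27, limma adjusted p = 0.184 and 0.641). It was the brightest of the 7 (10.14 log2 units on average) and weighs most in their sum. Vim averaged 5.48, near background, so the size of its rise is limited by the background estimate. The summed mesenchymal signal was 1379 to 1562 against 931 to 1306 in controls at 24 h, 1094 to 2003 against 754 to 1320 at 48 h and 1272 to 2530 against 999 to 1920 at 96 h, and its part in the Mbl2 result was not tested. Of 4 endothelial markers Cdh5 and Kdr were detected on 0 arrays, and Tek rose at 24 h (0.94, adjusted p = 0.0237) and not at 48 h (-0.16, adjusted p = 0.787). Tek averaged 5.07 log2 units, near background, so these sizes are limited by the background estimate. The summed signal of the 4 endothelial markers was 111 to 204 against 111 to 123 in controls at 24 h and 102 to 127 against 101 to 110 at 48 h, and its part in the Mbl2 result was not tested either. None of the 2 blood cell markers that passed the filter was called in limma at any time.

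Enterocyte markers were higher in irradiated organoids at the same times as Mbl2. Of 12 such genes listed, 9 were on the array and tested. All 9 rose at 24 h (11.1% of all genes were called higher), 7 rose at 48 h (7.27%) and 1 rose at 96 h (1.71%), and none fell. These counts were not repeated under other scalings. Their summed normalized signal was 20357 to 24097 in irradiated samples against 12881 to 14911 in controls at 24 h. At 48 h it was 18737 to 19852 against 10655 to 11688, and at 96 h 9759 to 11241 against 9189 to 11132. Apoa1, which encodes the apolipoprotein of high-density lipoprotein, differed by 0.70, 1.04 and, without passing, 0.25 log2 units at 24, 48 and 96 h (limma adjusted p = 0.000154, 1.35e-06 and 0.277). The part of enterocyte number in the Mbl2 rise was not tested, and in bulk samples more cells of a type and more RNA per cell cannot be told apart.

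The other genes of the lectin pathway were for the most part below detection. Besides Mbl2 the list of collectins, ficolins and their proteases held 10 symbols, 9 of them on the array, and 1 passed the detection filter. The sister gene Mbl1 was detected on 0 of 24 arrays, and so were the protease gene Masp1, the ficolin gene Fcna, the collectin genes Colec10 and Colec12 and the surfactant collectin gene Sftpa1. Masp2, which encodes the protease that cleaves C4 and C2, was detected on at most 2 arrays with each of its 3 probes, and the ficolin gene Fcnb on 1.

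The exception was Sftpd, which encodes surfactant protein D, a collectin that binds microbial sugars at mucosal surfaces. At 24 h it was detected on none of the 8 arrays, so no difference is given for that time. At 48 h it was 7.12, 7.22, 7.12 and 6.89 in irradiated samples, against 5.91, 6.11, 6.11 and 6.11 in controls.

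At 96 h Sftpd was 7.07, 7.32, 6.70 and 6.32 in irradiated samples, against 5.84, 5.28, 5.01 and 5.63 in controls. The groups did not overlap at 48 or at 96 h, which held with irradiated above control for 9.44% and 2.94% of all genes. Sftpd rose by 1.03 at 48 h (SE 0.19, limma adjusted p = 0.000478) and by 1.41 at 96 h (SE 0.19, adjusted p = 2.15e-05). The change of its effect from 48 to 96 h did not pass (0.38, adjusted p = 0.509).

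None of the 8 complement component genes tested, of 17 on the array, passed in limma at any of the 3 times, and 1, 0 and 1 had an unadjusted p under 0.05 at 24, 48 and 96 h (the share of all genes under that unadjusted threshold was not counted). Over all genes 23.6%, 13.5% and 5.1% passed at these times, but several of the 8 were seldom above background, C1s and C8a on 4 of 24 arrays, C3 on 5 and Cfp on 9. Their median difference was 0.35 at 24 h, -0.06 at 48 h and -0.10 at 96 h, against -0.04, -0.04 and -0.0036 over all genes tested. C3, the central component of all complement pathways, was detected on 0 of 8 arrays at 24 h, on 2 irradiated and 1 control array at 48 h and on 0 irradiated and 2 control arrays at 96 h. Cfb, factor B of the alternative pathway, was detected on all 24 arrays and differed by 0.39, -0.016 and -0.097 (adjusted p = 0.0743, 0.963 and 0.810). C4b, which encodes a C4 protein that the MASPs cleave, was detected on 19 arrays and differed by 0.52, 0.39 and -0.10 (adjusted p = 0.331, 0.561 and 0.922). C2, the other substrate of that step, was detected on 0 arrays.

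**Figure D3:**
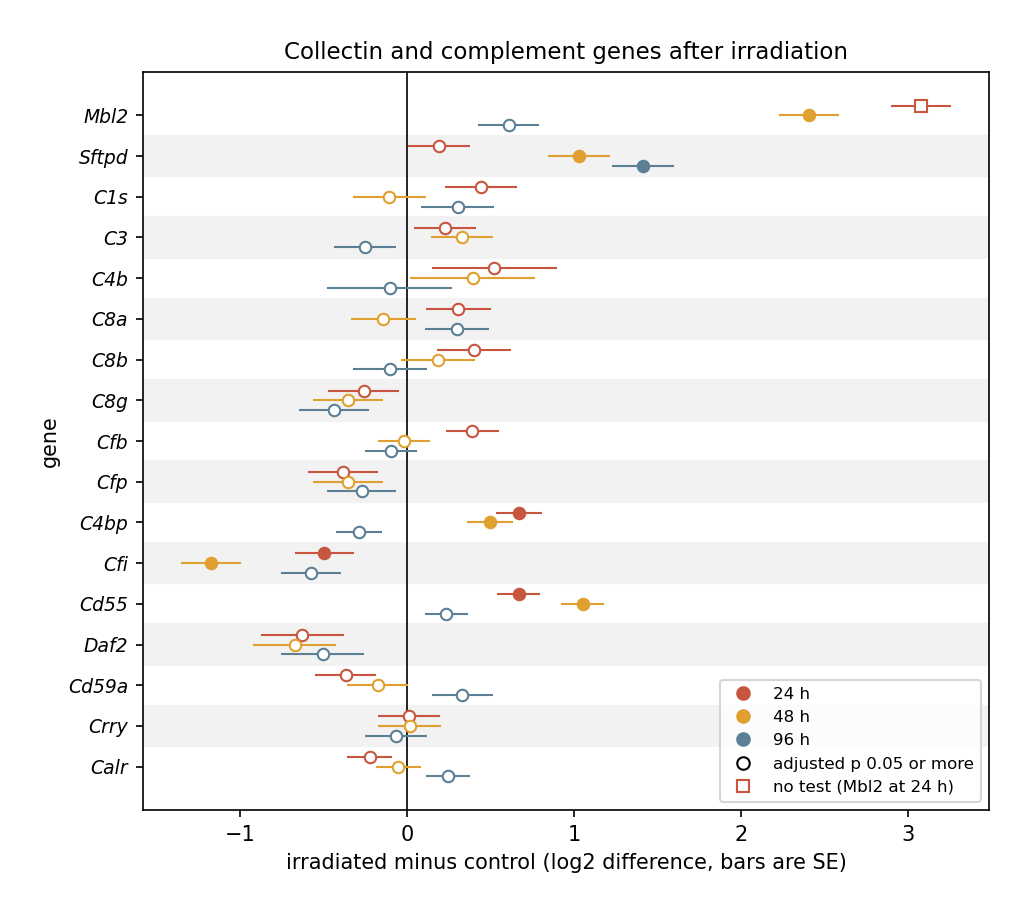
Irradiated minus control difference (log2, with SE) at 24, 48 and 96 h for the 17 collectin and complement genes that passed the detection filter. Filled symbols have a limma adjusted p under 0.05; Mbl2 lies furthest to the right at 24 and 48 h and Sftpd furthest to the right at 96 h.

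Among 7 tested complement regulators and receptors, of 19 on the array, 2 rose and 1 fell at 24 h, where 11.1% of all genes rose and 12.5% fell. At 48 h again 2 rose and 1 fell (7.27% and 6.22% of all genes), and at 96 h none passed in limma (1.71% and 3.39%), with 1 at an unadjusted p under 0.05 (share of all genes not counted). The list's median was -0.22, -0.05 and -0.06. The genes that passed were Cd55, C4bp and Cfi at both times. The direction of calls at 24 h depends on scaling: of the 16 lectin and complement genes tested besides Mbl2, 2 rose and 1 fell, against 0 and 2 with median scaling and 4 and 0 with cyclic loess.

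Cd55 encodes decay-accelerating factor, a membrane protein that breaks up the convertases. Its level at 48 h was 8.36, 8.45, 8.52 and 8.12 log2 units in irradiated samples, against 7.46, 7.35, 7.09 and 7.33 in controls, with no overlap (true with irradiated above control for 9.44% of all genes). It rose by 0.67 at 24 h (SE 0.13, adjusted p = 0.000538) and 1.05 at 48 h (SE 0.13, adjusted p = 3.67e-06), and the 96 h difference was 0.24 (adjusted p = 0.355). The effect was smaller at 96 h than at 48 h (difference -0.81, adjusted p = 0.0126). With median scaling the 24 h difference was 0.15 and did not pass (adjusted p = 0.604).

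C4bp encodes C4b-binding protein, a secreted inhibitor of the convertase of the lectin and classical pathways. Levels at 24 h were 8.29, 7.96, 8.01 and 8.11 in irradiated samples, against 7.33, 7.41, 7.57 and 7.38 in controls, without overlap (true with irradiated above control for 12.7% of all genes). C4bp rose by 0.67 at 24 h (SE 0.14, adjusted p = 0.00104) and by 0.50 at 48 h (SE 0.14, adjusted p = 0.0175), and differed by -0.28 at 96 h (adjusted p = 0.286). Its effect was smaller at 96 h than at 24 h (difference -0.95, adjusted p = 0.00237; 11.4% of all genes passed). Median scaling ended both calls (0.16, adjusted p = 0.610, and 0.27, adjusted p = 0.432), and leaving out control 48 h replicate 4 ended the second (0.37, adjusted p = 0.0643).

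Cfi encodes complement factor I, the protease that inactivates C3b and C4b. At 48 h it had 6.78, 6.97, 6.70 and 7.05 log2 units in irradiated samples, against 7.89, 8.23, 8.35 and 7.70 in controls, again without overlap (the share of all genes with irradiated below control was not counted). It fell by 1.17 on the log2 scale at 48 h (SE 0.18, adjusted p = 7.31e-05). The 24 h difference of -0.49 passed narrowly (adjusted p = 0.0488) and failed in 16 of 24 fits without 1 array, with adjusted p up to 0.224 without irradiated 24 h replicate 3 (-0.29). It also failed in 10 of 15 other settings, with -0.19 under cyclic loess (adjusted p = 0.418). At 96 h it was -0.57 (adjusted p = 0.0673).

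Among soluble lectins of the gut, 8 of 14 tested rose and 1 fell at 24 h, 7 rose and 1 fell at 48 h, and 4 rose and none fell at 96 h. Over all genes 11.1% rose and 12.5% fell at 24 h, 7.27% and 6.22% at 48 h, and 1.71% and 3.39% at 96 h. These list counts were not repeated under other scalings. Lgals2 fell at 24 h (-0.33, limma adjusted p = 0.0300). Reg3g fell at 48 h (-0.32, limma adjusted p = 0.0223) and had risen by 0.58 at 24 h. The rises of Lgals3, Reg3b and 1810010M01Rik were the largest of the list at each time. Lgals3, which encodes the carbohydrate-binding protein galectin-3, rose by 1.60, 1.90 and 1.22 (adjusted p = 2.47e-08, 5.38e-09 and 3.7e-06). Reg3b, a C-type lectin that acts on bacteria, rose by 1.40, 1.77 and 2.16 (adjusted p = 3.15e-09, 3.91e-10 and 1.28e-11). 1810010M01Rik, an older symbol of Zg16, which encodes a lectin of goblet cell mucus, rose by 1.21, 1.44 and 1.28 (adjusted p = 4.4e-08, 6.84e-09 and 5.88e-08), the last of which did not pass with median scaling (0.92, adjusted p = 0.0555). Lgals3, Reg3b and 1810010M01Rik were detected on all 24 arrays. The difference at 96 h for Reg3b and Lgals3 passed, while that for Mbl2 did not, and the difference between these genes was not tested.

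Since Mbl2 is best known as a liver product, other plasma proteins of the liver were examined. Of 26 such genes on the array, 11 were tested, and 2 rose and 1 fell at 24 h, 1 rose and 1 fell at 48 h, and 1 fell at 96 h. These counts are near the 23.6%, 13.5% and 5.1% of all genes called at the 3 times. An unadjusted limma p under 0.05 was reached by 3, 3 and 7 of the 11 at 24, 48 and 96 h. The share of all genes under that unadjusted threshold was not counted, so these counts show no excess. At 96 h the 11 differences went in both directions, from -0.66 to 0.55 with a median of -0.17. Afp, the fetal plasma protein alpha-fetoprotein, rose by 0.69 at 24 h (adjusted p = 0.00152) and by 1.06 at 48 h (adjusted p = 2.39e-05), and had a difference of -0.31 at 96 h (adjusted p = 0.286).

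The Afp effect at 96 h was smaller than at 48 h (difference -1.37, adjusted p = 0.000399). With median scaling its 24 h difference was 0.17 (adjusted p = 0.540). Serpinc1, which encodes antithrombin, rose by 0.68 at 24 h (adjusted p = 0.00776), but not with median scaling (adjusted p = 0.0601), with detected probes as a covariate (0.0878) or without the 5 arrays with the fewest probes (0.215). Ttr, the carrier of thyroxine and retinol, fell by 1.61 on the log2 scale at 24 h, by 1.11 at 48 h and by 0.66 at 96 h (adjusted p = 9.76e-10, 2.67e-07 and 0.000537). The 96 h call was lost without the 5 arrays with the fewest probes (-0.59, adjusted p = 0.05001) and with 96 h arrays alone (-0.66, 0.0520).

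Of 4 tested acute phase genes, 1 rose at 24 h and none passed in limma at 48 or 96 h, where 1 and 0 had an unadjusted p under 0.05 (share of all genes not counted). With 23.6% of all genes called at 24 h, 1 of 4 is near that share. This was Apcs, serum amyloid P, a pentraxin that binds microbes and can activate complement. Its 24 h levels were 6.55, 6.31, 6.06 and 5.94 in irradiated samples, against 4.89, 4.85, 5.03 and 5.15 in controls. It was detected on 3 of 4 irradiated arrays and on no control, and was at least 1.93-fold higher on this normalized scale (limma adjusted p = 2.05e-07). The difference was 0.35 at 48 h (adjusted p = 0.0794), and at 96 h Apcs was detected on 0 of 8 arrays.

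Likeness to Mbl2 was measured as the Pearson correlation of log2 levels over the 24 arrays with each of 10797 other genes. The 5 most alike named genes were Gpt1 (r = 0.95), an alanine aminotransferase gene, Gsdmdc1 (0.95), an older symbol of gasdermin D, the Notch ligand gene Jag1 (0.94), Trp53inp2 (0.94) and Ddit4l (0.93). Spearman's rho for these was 0.70 to 0.83. In all, 40 genes reached an r of 0.9. These values describe a shared pattern of groups, including the 24 h arrays that chose Mbl2, and the arrays share chips and depth of detection.

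Once the mean of each group was subtracted, r of the same 5 genes with Mbl2 was -0.19 to 0.35. Glcci1 (r = 0.91), Olfr1469 (0.85), Acot4 (0.85), Lsm11 (0.84) and Thada (0.82) then came closest, and Glcci1 alone reached 0.9. Over the levels themselves Glcci1 had an r of -0.43 with Mbl2. Mbl2 was detected on 11 of 24 arrays, and its SD was largest in the irradiated and control groups of 96 h (0.46 and 0.32), near background. Its spread within groups therefore includes many arrays on which it was not detected, and the part of background signal in that spread was not tested. These correlations cannot show which genes share its variation.

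**Figure D4:**
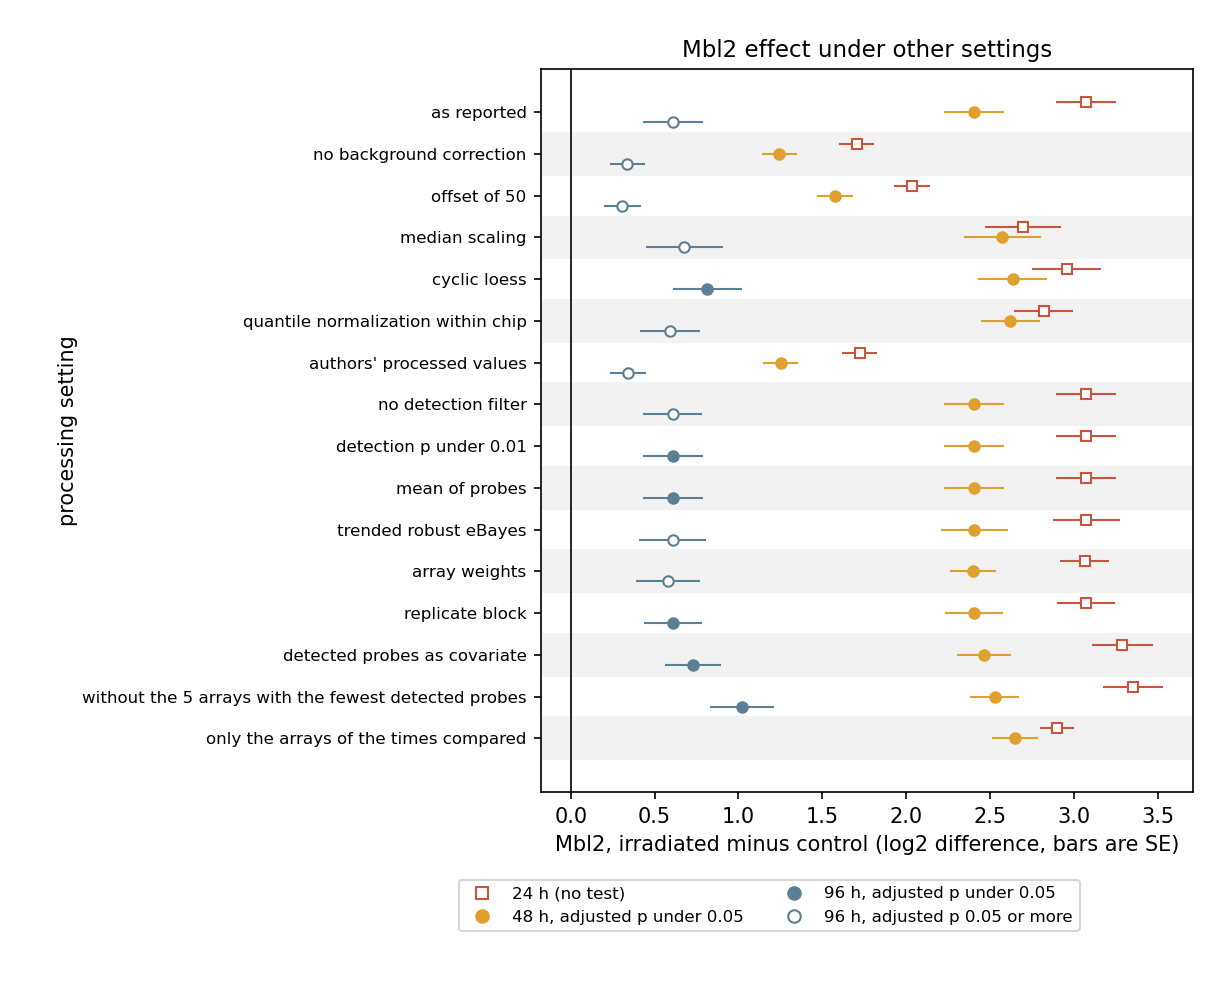
Irradiated minus control difference of Mbl2 (log2, with SE) under each processing setting, at 24 h (squares, no test), 48 h and 96 h (circles, filled where the adjusted p is under 0.05). The 48 h difference is filled in all rows, and settings without background correction bring all 3 differences closer to 0.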

How the data were processed

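RNA was measured on Illumina BeadChips, 1 array per sample. The authors' first deposited table gives, per the file headers, the mean bead intensity of each probe, linear and, from the values, neither normalized nor background subtracted. Beside it, per the file headers, stands the p-value of detection of every probe on every array, in steps that 798 negative controls give. The authors' second deposited table holds processed intensity that, from the values, is quantile normalized without background subtraction. The sources used here name no software for it.

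The function neqc of limma 3.58.1 (R 4.3.3; data read with data.table, version 1.17.8) corrected background by normexp, using detection p-values and an offset of 16, then quantile normalized and took log2. The filter kept 15056 probes that were detected (p under 0.05) on 4 or more arrays, and the brightest per symbol stood for each of 10798 genes. One mean per group was fitted to 24 arrays with limma (18 residual and 3.96 prior degrees of freedom), two-sided, with Benjamini-Hochberg adjustment over all genes and a threshold of 0.05. The fit was tested on simulated data with changes added at 48 h. It recovered 34% of changes of 0.5 log2 units, 88% of 1 and 100% of 2. Differences near 0.5 log2 units that did not pass are therefore not shown to be absent. The number of arrays limits the precision (median SE 0.17).

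Members and lists were chosen with earlier results of these data known. A gene undetected on every array of a group has only a bound on its fold, the brighter mean over the dim group's mean of whichever is higher on each array, its own signal or the lowest detected one. Named genes are Mbl2, tested members of the lectin pathway list, up to 3 called members per other list and time, and the genes most like Mbl2. Probe and protein sequences were not used here. Alternatives covered background, scaling, filters, probe summary, variance model, samples fitted, replicate block, detected probes and leaving out arrays; leave-one-out counts and the permutation test were added after seeing the data.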

Additional observations from a re-analysis of the deposited data

Results flagged for a closer look

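The irradiation effect on Mbl2 differed between times by a limma contrast of effects, -1.80 for 96 h minus 48 h (adjusted p = 0.000178), with controls at or near background at both times. Among the genes set beside it, effects at 96 h minus 48 h differed by -0.81 for Cd55, -0.78 for C4bp (adjusted p = 0.0260) and -1.37 for Afp. At 96 h minus 24 h they differed by 1.22 for Sftpd, -0.95 for C4bp (adjusted p = 0.00237), 0.76 for Reg3b (0.00200), 0.95 for Ttr (0.000393), -1.001 for Afp (0.00303) and -1.17 for Apcs (0.000176). For Apcs the effect at 48 h minus 24 h differed by -0.89. The Sftpd and Apcs values include groups in which the probe was above background on no array, so they give no size and no conclusion rests on them.

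Single arrays stood apart from the other 3 of their group in 4 of 78 groups examined, where chance alone gives about 1 in 20 (3.9). None of these concerned Mbl2. Sftpd was low in control 24 h replicate 3 (4.47, below detection) and in control 48 h replicate 1 (5.91). Cfi was low in irradiated 24 h replicate 3 (5.56), the array with the fewest detected probes, and Lgals3 was low in control 48 h replicate 2 (8.01).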

How the results depend on the processing

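The 48 h difference of Mbl2, its fall in irradiated organoids between 48 and 96 h and the change of its effect between these times kept direction and call in every setting fitted and without each array (1.24 to 2.65, -1.98 to -1.01 and -2.03 to -0.90; leaving out 1 array gave 2.33 to 2.51, -2.07 to -1.75 and -1.96 to -1.64). The 24 h difference was 1.71 without background correction, 2.04 with an offset of 50, 2.70 with median scaling, 2.82 with normalization within a chip, 1.72 in the authors' processed values, 3.29 with detected probes as a covariate, 3.36 without the 5 arrays with the fewest probes, 2.90 with 24 h arrays alone and 3.03 to 3.17 without 1 array. The 96 h difference passed with cyclic loess (0.81, adjusted p = 0.0190), a detection p under 0.01 (0.61, 0.0452; fewer genes tested), the mean of probes (0.61, 0.0487), the covariate (0.73) and without the 5 arrays (1.02), and was 0.45 to 0.78 without 1 array; with 96 h arrays alone Mbl2 missed the filter. The control difference between 96 and 48 h, not called, was 0.075 within chips and 0.041 with the covariate, and -0.26 to -0.00394 without 1 array. The cause of these changes was not tested. Of the 12 pairs of samples that share a number, deviations correlated at -0.41 to 0.46 and 6 matched best with their own number (3 of 4 at 24 h). Since not every pair correlated above 0.1, the numbers were not used as pairs, which does not show that the samples are unpaired. With the replicate block calls numbered 2658, 1493 and 551 at 24, 48 and 96 h, and the 96 h difference of Mbl2 stayed 0.61 and passed (0.0486).

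Genes called numbered 2550 at 24 h (1598 without the 5 arrays), 1457 at 48 h (902 with median scaling, 2497 with array weights) and 551 at 96 h (318 with array weights, 246 without the 5 arrays, 167 with 96 h arrays alone). Median scaling put the median of all genes at -0.36, -0.25 and -0.23 for 24, 48 and 96 h, and moved the share of calls that were higher to 11.6%, 34.6% and 12.0%, against 47.1%, 53.9% and 33.6% as reported; with cyclic loess it was 68.5% at 24 h, and with the 5 arrays left out 57.6%. Of 16 tested lectin and complement genes besides Mbl2, calls numbered 3 at 24 h (5 with array weights or 24 h arrays alone, 2 to 5 without 1 array), 4 at 48 h (3 to 5 without 1 array) and 1 at 96 h (2 with cyclic loess, median scaling, the authors' values, an offset of 50 or uncorrected background, 1 to 2 without 1 array). Because Mbl2 lay near background in controls, the size of its fold is limited by the background estimate.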
